A study of Mus musculus with 8 samples.

Results

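The Wnt ligands, their receptors and their antagonists were described in 8 Myc-CaP tumors, 4 primary orthotopic tumors and 4 metastases. The genes were chosen by symbol: the numbered Wnt, Fzd, Dkk and Sfrp genes, together with Lrp5, Lrp6, Axin1, Axin2, Ctnnb1, Lef1, Tcf7 and Lgr5. Of the 38115 genes listed, 45 matched, with 19 ligands, 10 frizzled receptors, 8 secreted antagonists, 5 intracellular genes and 3 genes for Lrp5, Lrp6 and Lgr5. Frzb, a secreted antagonist of the Sfrp family, falls outside these symbols and was counted with the other genes of the pathway. A low-count filter was passed by 23 of the 45, and the other 22 were described by their raw counts.

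Myc-CaP is a mouse prostate cancer cell line from a tumor driven by a prostate Myc transgene. The androgen-sensitive line (Myc-CaP/AS) and the castrate-resistant line (Myc-CaP/CR) were injected into the anterior prostate lobes of FVB male mice, which were intact or had been surgically castrated. RNA was sequenced from 2 primary tumors and 2 metastases of each phenotype, so that each of the 4 groups held 2 tumors and all of them shared the Myc-driven background. The labels do not say which host was castrated, where a metastasis grew, which primary tumor it was matched to, or whether the tumors came from separate animals, so p-values measure only the spread between these samples. Cell line and the number range of the sample identifiers follow the phenotype and cannot be told apart from it. Whether host treatment follows it too is not given. Tumors are named here by type, phenotype and a number given in the order of the deposit, such as primary AS1 and metastatic CR2.

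Wnt proteins are secreted, lipid-modified ligands that bind frizzled receptors. With the co-receptors Lrp5 or Lrp6, this binding keeps the destruction complex, which contains Axin, from degrading beta-catenin (Ctnnb1), which then enters the nucleus and activates genes with the factors Lef1 and Tcf7. Other Wnt proteins, with Wnt5a as the best known, act mainly without beta-catenin on cell movement and polarity. Most Sfrp and Dkk proteins can block ligands or co-receptors outside the cell. In the prostate, Wnt signaling is known for its part in budding of the gland and for its activity in prostate cancer.

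Promoter sequences are shown for the 3 frizzled genes with the smallest p-values between phenotypes among those with a sequence, since the receptors carry most of the differences described here. Each is the RefSeq window of 300 bases on GRCm38.p6, from 250 bases before to 50 bases after the annotated start, written 5′ to 3′ on the strand of the gene. Fzd4 lies on the plus strand at chr7:89404116-89404415, Fzd7 on the plus strand at chr1:59481897-59482196 and Fzd5 on the minus strand at chr1:64737701-64738000. The Fzd7 window ends before the start of the gene in GENCODE M21, at 59482424, so it is set by a different start. They are written in lower case throughout, since neither motif searched was found in them.
Fzd4: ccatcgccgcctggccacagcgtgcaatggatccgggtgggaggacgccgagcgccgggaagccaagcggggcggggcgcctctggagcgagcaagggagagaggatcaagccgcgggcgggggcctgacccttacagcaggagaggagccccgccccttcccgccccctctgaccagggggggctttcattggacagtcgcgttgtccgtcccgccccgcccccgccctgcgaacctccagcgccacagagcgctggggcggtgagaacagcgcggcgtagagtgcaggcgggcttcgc
Fzd7: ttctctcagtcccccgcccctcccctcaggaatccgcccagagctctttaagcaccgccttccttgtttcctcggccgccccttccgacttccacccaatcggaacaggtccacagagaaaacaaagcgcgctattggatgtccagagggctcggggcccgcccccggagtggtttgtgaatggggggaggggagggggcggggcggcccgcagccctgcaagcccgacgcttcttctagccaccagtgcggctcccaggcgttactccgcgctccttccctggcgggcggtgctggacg
Fzd5: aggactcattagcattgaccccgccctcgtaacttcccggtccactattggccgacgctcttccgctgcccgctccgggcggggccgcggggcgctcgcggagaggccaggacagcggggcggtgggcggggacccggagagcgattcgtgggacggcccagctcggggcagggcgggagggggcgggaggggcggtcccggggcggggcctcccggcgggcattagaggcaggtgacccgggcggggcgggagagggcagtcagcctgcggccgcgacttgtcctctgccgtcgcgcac
The motifs CTTTGAT (TCF/LEF) and CACGTG (E-box), each searched on both strands, had no match in the 3 windows, which says only that these letters are not there. CTTTGAT occurs in 3.73% of all 32851 windows and CACGTG in 7.15%, and they occur in the windows of 2 and 3 of the 29 member genes with a sequence. The GC content was 72.7% for Fzd4, 66.7% for Fzd7 and 75.7% for Fzd5, against a median of 52.7% over all windows.

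Total counts ranged from 20905806 to 91886163 per tumor, and 3 of the 4 CR tumors had fewer counts than every AS tumor. Levels are given as CPM, the count scaled to the TMM-corrected size of the library, and levels of different genes are compared only as CPM per kilobase of exon. The epithelial markers Epcam, Cdh1, Krt18 and Cldn7 were near 0, the highest being Cdh1 at 0.606 CPM. Of 45 tested marker genes, from 10 of 12 lists of tissues and cell types, 6 passed the test between phenotypes (13.3%, against 12.2% of all tested genes). They include Fgb, a fibrinogen chain made in liver, at 3710 to 10060 CPM in AS and 87.8 to 1967 CPM in CR tumors. Of the 3 tested liver markers, Ttr also passed as lower, at 3.28 to 25.1 CPM in AS and 2.22 to 7.03 CPM in CR tumors. Albumin (Alb), at 0 to 3.18 CPM, did not pass. In bulk tumors, fewer cells of a type and less RNA per cell cannot be told apart.

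Few of the genes were abundant. Beta-catenin was the highest at 62.6 ± 11.8 CPM per kilobase (SD, n = 8), followed by Wnt4, a ligand of urogenital development, at 16.1 ± 6.63, Fzd6 at 14.5 ± 4.6, Lrp5 at 9.73 ± 3.85 and Axin1, the scaffold of the destruction complex, at 8.14 ± 0.861 CPM per kilobase. These SDs cover both phenotypes and overlap for Wnt4 and Fzd6 and for Lrp5 and Axin1, and the order within these pairs was not tested. By phenotype, the means of Wnt4 and Fzd6 were 13.7 and 10.6 CPM per kilobase in AS tumors and 18.6 and 18.4 in CR tumors. Wnt5a, Fzd4, Wnt7b, Lrp6, Fzd5, Fzd7 and Fzd2 followed, between 6.32 and 1.15 CPM per kilobase, and Lgr5, a stem cell receptor, was at 0.0466.

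**Figure D1:**
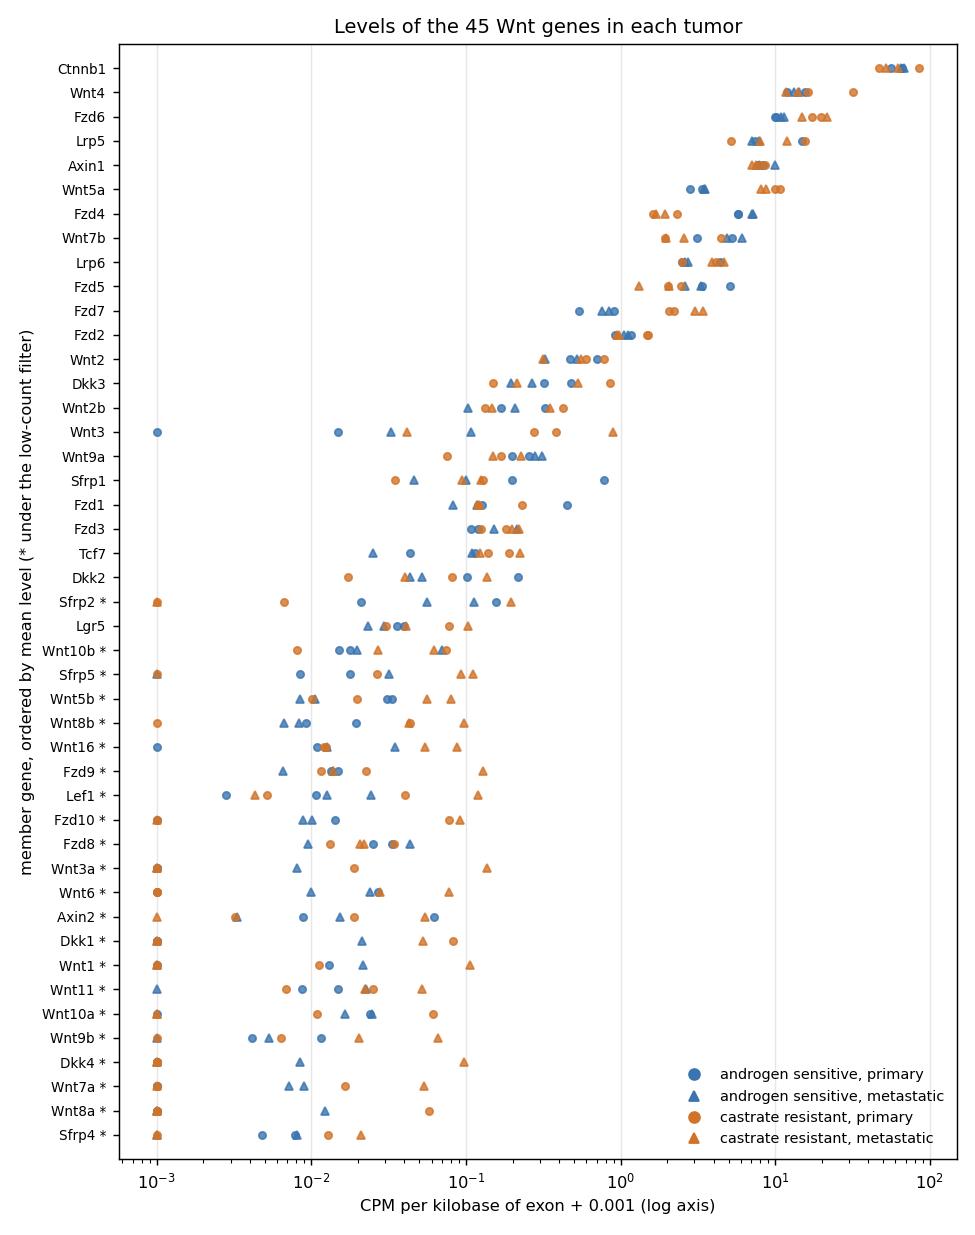
Levels of the 45 genes in each of the 8 tumors, as CPM per kilobase of exon plus 0.001 on a log axis, with genes in order of their mean and an asterisk for those under the low-count filter. Ctnnb1, Wnt4, Fzd6, Lrp5 and Axin1 are the highest by mean.

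Wnt4, Wnt5a and Wnt7b together made up 91.9% to 96.4% of the summed ligand level in every tumor. The summed level, in CPM per kilobase, ranged from 19.1 to 46.4 for ligands, from 21.1 to 29.2 for frizzled receptors and from 0.355 to 1.49 for secreted antagonists. The antagonists counted here, the Dkk and Sfrp genes, were thus far below both other classes in all 8 tumors. Other secreted antagonists are not in this sum, such as Wif1, at 1.40 to 5.62 CPM in AS and 0.0991 to 6.71 CPM in CR tumors.

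The comparison of phenotypes asked which of these genes differed between CR and AS tumors. In CR tumors, the receptor Fzd7 and the ligand Wnt5a were several-fold higher and the receptor Fzd4 was several-fold lower, and smaller differences were found for Fzd6, which was higher, and Fzd5, which was lower. Wnt3, a ligand at low counts, was also higher. In all, 6 of the 23 tested genes passed an adjusted p of 0.05, 4 higher and 2 lower, which is 26.1%, against 12.2% of all 17104 tested genes (6.16% higher and 6.01% lower). The median log2 fold change was 0.18 over the 23 genes and -0.01 over all genes. P-values are from the quasi-likelihood test of edgeR, adjusted by the Benjamini-Hochberg method over all tested genes, with tumor type as a term, and errors of log2 fold changes are standard errors.

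Wnt5a (chromosome 14, 28504750 to 28527448, plus strand, mm10) was at 21.9 and 26.1 CPM in the primary AS tumors, 26.9 and 27.4 in the metastatic AS tumors, 77.5 and 83.7 in the primary CR tumors and 68.1 and 63.8 in the metastatic CR tumors. All CR tumors were above all AS tumors, at 73.3 ± 9.02 against 25.6 ± 2.53 CPM (SD, n = 4 each). The log2 fold change was 1.51 ± 0.15, with an adjusted p of 0.00198 by edgeR. It passed the threshold without each of the 8 tumors in turn.

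Wnt3, which acts through beta-catenin, had counts of 0, 26, 3 and 10 in primary AS1, metastatic AS1, primary AS2 and metastatic AS2, and of 97, 94, 17 and 3 in the CR tumors in the same order. Its groups overlap, since metastatic CR2, at 0.126 CPM, was below metastatic AS1, at 0.329 CPM. The log2 fold change of 3.72 ± 1.0 had an adjusted p of 0.0445 by edgeR, which stayed past the threshold in 2 of the 8 fits that leave out a tumor, those without primary CR1 and without metastatic CR2, with adjusted p from 0.0195 to 0.239. By limma the adjusted p was 0.113.

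Wnt7b, a ligand of epithelial development, was at 15.4, 23.8, 25.6 and 30.0 CPM in the AS tumors and 22.0, 9.56, 9.51 and 12.6 CPM in the CR tumors. Primary CR1 lies among the AS tumors, and the other 3 CR tumors lie below them all. The log2 fold change was -0.82 ± 0.32, with an adjusted p of 0.132 by edgeR, and without primary CR1 it was -1.22, with an adjusted p of 0.00732. Wnt4 was at 50.3, 55.4, 65.0 and 59.6 CPM in AS tumors and 68.7, 49.6, 135 and 58.6 CPM in CR tumors, and its log2 fold change of 0.36 did not pass (95% interval -0.24 to 0.97).

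Of the 7 tested frizzled receptors, 2 were higher and 2 lower in CR tumors. Fzd4 (chromosome 7, 89404355 to 89413134, plus strand), a receptor for Wnt proteins and for Norrin, was at 38.5, 48.6, 38.8 and 47.3 CPM in AS tumors and at 10.9, 11.3, 15.6 and 13.0 CPM in CR tumors. Every CR tumor was below every AS tumor, with means 3.41-fold apart. The log2 fold change was -1.76 ± 0.17, with an adjusted p of 0.00178 by edgeR, past the threshold in all 8 fits that leave out a tumor.

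Fzd7 (chromosome 1, 59482424 to 59486955, plus strand), a receptor known from stem cells and developing epithelia, was at 4.08, 3.80, 2.44 and 3.41 CPM in AS tumors and at 9.97, 15.5, 9.26 and 13.6 CPM in CR tumors. The groups did not overlap, at 3.43 ± 0.719 against 12.1 ± 2.98 CPM (SD, n = 4 each). The log2 fold change was 1.79 ± 0.22, with an adjusted p of 0.00435 by edgeR, and it too passed without each tumor in turn.

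Fzd6 (chromosome 15, 39006034 to 39038188, plus strand), a receptor known for tissue polarity, was at 48.5, 54.9, 47.9 and 52.3 CPM in AS tumors and 83.8, 104, 95 and 72.3 CPM in CR tumors. The groups did not overlap, and the log2 fold change was 0.80 ± 0.15, with an adjusted p of 0.0167 by edgeR. It passed in 3 of the 8 fits that leave out a tumor and not without any 1 of the AS tumors or without metastatic CR1, with adjusted p from 0.00879 to 0.0626 and log2 fold changes from 0.72 to 0.91.

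Fzd5 (chromosome 1, 64730558 to 64737751, minus strand), a receptor of gut and eye development, was at 35.1, 23.1, 23.2 and 18.2 CPM in AS tumors and 13.9, 9.07, 16.9 and 14.2 CPM in CR tumors. The lowest AS tumor was above the highest CR tumor, and the log2 fold change was -0.87 ± 0.21, with an adjusted p of 0.0320 by edgeR. It passed only without primary CR1 and without metastatic CR2 among the 8 fits that leave out a tumor, with adjusted p from 0.0324 to 0.107. Of the read-length windows of its exons, 15.2% also match Gm38058, another annotated gene, with up to 2 mismatches, and whether this affected its counts was not tested.

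**Figure D2:**
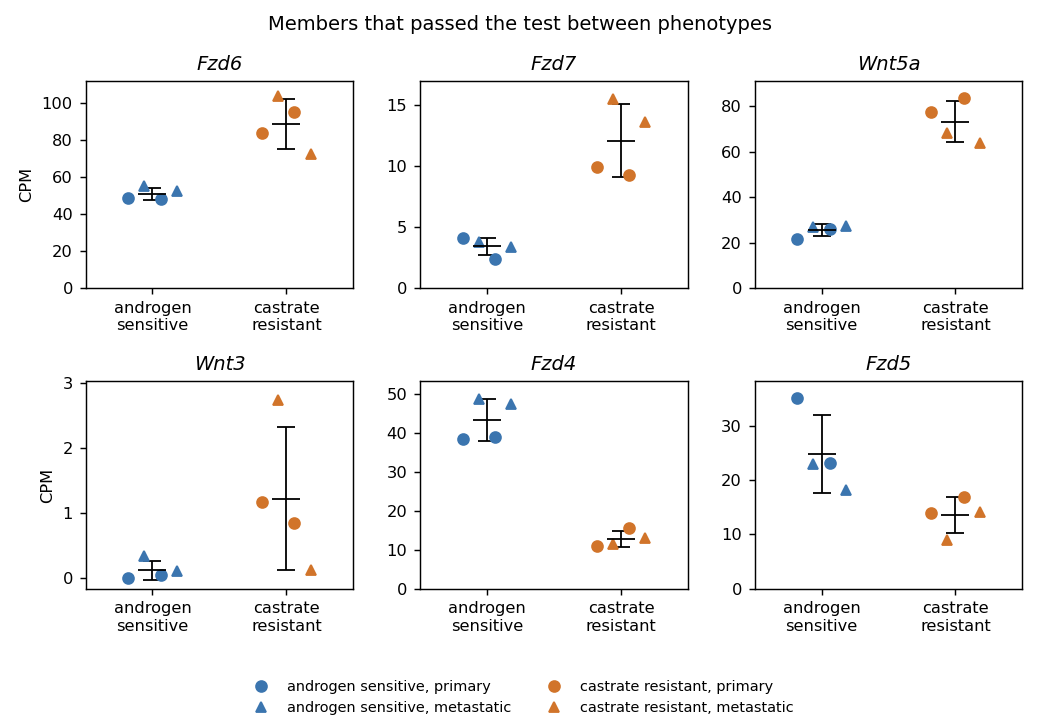
CPM of the 6 genes that passed the test between phenotypes, with a point for each tumor and bars for the mean and SD of the 4 AS and 4 CR tumors. The groups are apart for Fzd4, Fzd5, Fzd6, Fzd7 and Wnt5a and overlap for Wnt3.

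The summed frizzled level was 23.3, 24.2, 21.1 and 22.7 CPM per kilobase in AS tumors and 25.2, 29.2, 28.4 and 23.6 in CR tumors, with 3 of the 4 CR tumors above every AS tumor. As shares of the summed CPM per kilobase, Fzd4 was 28.2% ± 2.88 in AS and 7.15% ± 1.23 in CR tumors, and Fzd6 was 46.3% ± 2.09 and 68.9% ± 4.06 (SD, n = 4 each). Fzd4 and Fzd5 together made up 42.6% to 46.4% in AS and 10.3% to 16.9% in CR tumors. Among ligands, the share of Wnt5a was 14.3% ± 0.881 in AS and 30.0% ± 5.17 in CR tumors, that of Wnt7b was 20.8% ± 3.32 and 8.96% ± 4.04, and that of Wnt4 was 59.9% ± 2.70 and 55.2% ± 9.43. These shares come from the same counts as the tests and were not tested again.

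**Figure D3:**
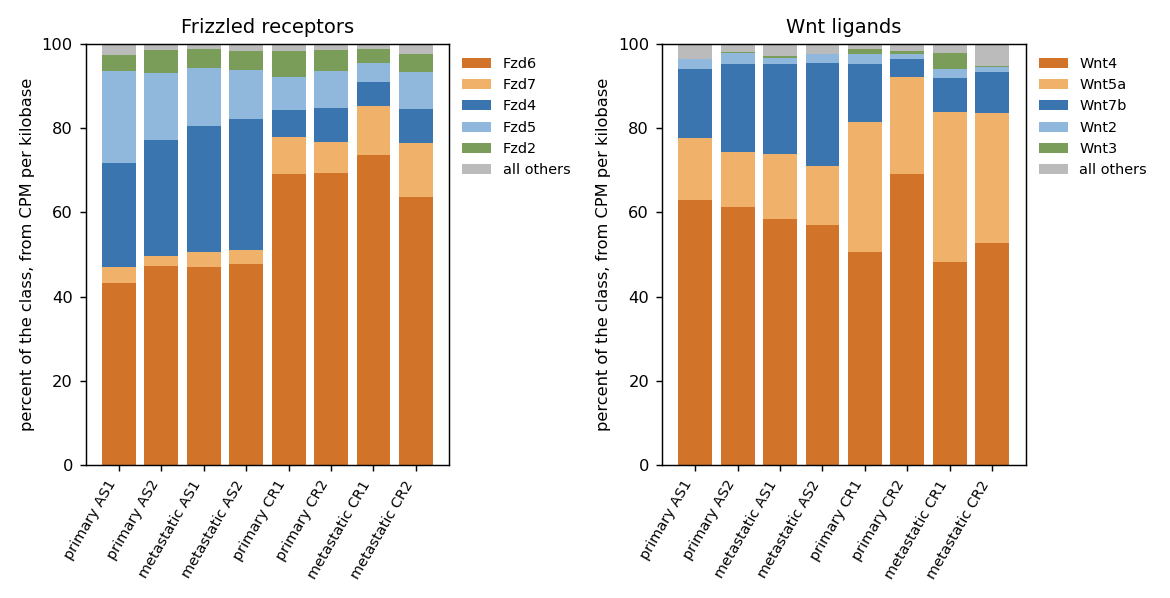
Share of each gene in the summed CPM per kilobase of the frizzled receptors and of the ligands, as stacked bars from 0 to 100% for each tumor. Fzd6 makes up the largest mean frizzled share in both phenotypes, and Wnt4 the largest mean ligand share.

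None of the tested co-receptors, antagonists or intracellular genes passed. Lrp5 was at 145, 76.8, 72.6 and 69.3 CPM in AS tumors and 50.3, 77.5, 151 and 116 CPM in CR tumors, with a log2 fold change of 0.14 (95% interval -0.67 to 0.95). Lrp6 was at 60.2, 35.8, 34.2 and 37.4 CPM in AS tumors and 34.0, 63.8, 56.8 and 53.2 CPM in CR tumors, with a log2 fold change of 0.31 (95% interval -0.27 to 0.89). For both co-receptors, primary AS1 was the highest AS tumor and primary CR1 the lowest CR tumor.

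Lgr5 was at 0.399, 0.228, 0.356 and 0.294 CPM in AS tumors and 0.303, 0.409, 0.793 and 1.05 CPM in CR tumors, with counts between 14 and 30, and its groups overlapped. Beta-catenin was at 290, 352, 344 and 336 CPM in AS tumors and 444, 321, 242 and 271 CPM in CR tumors, and its log2 fold change was -0.05 (95% interval -0.54 to 0.44). Its exons share 16.1% of their read-length windows with Ulk4, an overlapping antisense gene. Axin1 was at 29.8, 29.9, 31.7 and 38.0 CPM in AS tumors and 33.1, 28.8, 30.7 and 27.2 CPM in CR tumors, with a log2 fold change of -0.11 (95% interval -0.44 to 0.21).

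Tcf7, a nuclear partner of beta-catenin, was at 0.112, 0.063, 0.299 and 0.284 CPM in AS tumors and 0.363, 0.322, 0.495 and 0.586 CPM in CR tumors. The groups did not overlap, but the log2 fold change of 1.18 ± 0.56 had an adjusted p of 0.204 by edgeR. Without overlap between phenotypes were 6 of the 23 genes, Tcf7 and the called genes other than Wnt3, against 18.9% of all tested genes. Axin2, a widely used target of beta-catenin, did not pass the filter, with counts of 21, 1, 3 and 8 in AS and 1, 0, 2 and 7 in CR tumors. Lef1 had counts of 1, 8, 6 and 21 in AS and 3, 1, 7 and 25 in CR tumors.

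The remaining 9 tested genes did not pass between phenotypes. Their mean levels ran from 0.0851 CPM per kilobase for Dkk2 to 1.15 for Fzd2. Among ligands, the log2 fold changes were -0.73 for Wnt9a, 0.39 for Wnt2b and 0.15 for Wnt2. Among receptors they were 0.31 for Fzd3, 0.18 for Fzd2 and -0.23 for Fzd1, and among antagonists 0.54 for Dkk3, -0.52 for Dkk2 and -1.01 for Sfrp1. Dkk2 was at 0.798, 0.190, 0.371 and 0.157 CPM in AS tumors and 0.061, 0.146, 0.297 and 0.502 CPM in CR tumors, and its groups overlapped.

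Of 82 other genes of the pathway listed, 65 were tested and 9 passed between phenotypes, 4 higher and 5 lower in CR tumors, which is 13.8% and close to the 12.2% of all tested genes. The genes are named as single genes, and nothing is read from their number. Among secretion and receptor genes, Porcn, which attaches the lipid to Wnt proteins, was lower (log2 fold change -1.17), Ror1, a receptor for Wnt5a, was lower (-0.81), and Ryk, another Wnt receptor, was higher (0.66). Ror1 was at 22.7 to 31.8 CPM in AS and 12.9 to 18.1 CPM in CR tumors, and Ryk at 36.8 to 51.8 and 53.8 to 85.4 CPM. Vangl2, a core protein of planar cell polarity, was higher (1.97), at 0.200 to 0.849 CPM in AS and 1.49 to 2.43 CPM in CR tumors.

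Ctnnbip1, an inhibitor of beta-catenin, was higher in CR tumors (log2 fold change 0.89), and the Groucho co-repressors Tle4 (-1.01) and Tle2 (-1.82) were lower. Rnf43, a ligase that removes frizzled receptors from the cell surface, was higher (1.71) at counts of 5 to 50. Wisp2, a secreted matrix protein, was lower (-3.05), at 0.447 to 1.46 CPM in AS and 0 to 0.158 CPM in CR tumors. The size of its change thus rests on CR levels near 0. The tested genes of the R-spondin group, other antagonists and targets otherwise did not pass.

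The genes whose levels over the 8 tumors were most like those of Fzd4, by Pearson's r of log2(CPM + 1), were Rabgef1 (0.994), Cav1 (0.985) and Apol8 (0.982). For Wnt5a they were Bbs7 (0.993), Cxcl15 (0.988) and Arg1 (0.988), and for Fzd7 they were Fgfrl1 (0.989), Ptcd3 (0.983) and Ppid (0.983). For Fzd6 they were Ntn3 (0.991), Hnrpdl (0.990) and Txndc16 (0.988), for Fzd5 Arhgef40 (0.986), Zswim1 (0.980) and Gltp (0.974), and for Wnt3 Rabep1 (0.989), 0610007P08Rik (0.981) and 2610008E11Rik (0.981). The points fall in 2 phenotypes, so for the genes whose groups do not overlap r describes mainly that separation. For Wnt3, whose groups overlap, this holds less. Its r was 0.871 with Fzd6, 0.712 with Fzd7, 0.709 with Wnt5a, -0.711 with Fzd4 and -0.797 with Fzd5. No r has a p here.

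The comparison of metastatic with primary tumors asked whether the same genes differed by tumor type. None of the 23 passed, and neither did any of the 17104 genes (0%), by edgeR, DESeq2 or limma. At an unadjusted p under 0.05, edgeR gave 1 of the 23 and 459 genes in all, which is 2.68%, DESeq2 gave 2 and 611, and limma 0 and 440. With phenotype as a covariate, edgeR called no gene and gave 0 of the 23 and 1146 genes at an unadjusted p under 0.05, and Fzd1 had a p of 0.0529. No member had groups without overlap, against 1.7% of all genes. The median log2 fold change was -0.05 over the 23 genes and -0.03 over all genes.

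Fzd1 was the gene under an unadjusted p of 0.05, with a log2 fold change of -1.10 (95% interval -2.18 to -0.02) and an adjusted p of 0.997 by edgeR. It was at 1.88, 0.527, 0.969 and 0.495 CPM in the primary tumors AS1, AS2, CR1 and CR2, and at 0.494, 0.343, 0.497 and 0.502 CPM in the metastases in the same order. Only primary AS1 and primary CR1 stood above the rest by much. Sfrp1, a secreted antagonist, was at 3.43, 0.870, 0.557 and 0.149 CPM in primary tumors and 0.431, 0.196, 0.409 and 0.544 CPM in metastases, and the groups overlapped (log2 fold change -1.71, 95% interval -3.51 to 0.08).

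Of 7 smooth muscle and pericyte markers, Myh11 (10.2 CPM), Des (7.96 CPM) and Cnn1 (2.28 CPM) were highest in primary AS1 and Rgs5 (25.8 CPM) was lowest there. The summed level of the list was 57.1 CPM in primary AS1, 46.2 to 57.9 CPM over the AS tumors and 48.2 to 67.8 CPM over the CR tumors, and its part in the Fzd1 and Sfrp1 values was not tested. Fzd3 was at 1.37, 1.53, 2.31 and 1.59 CPM in primary tumors and 1.94, 2.74, 2.51 and 2.81 CPM in metastases, with 1 primary tumor inside the range of the metastases (log2 fold change 0.55, 95% interval -0.08 to 1.18). Wnt9a was at 0.845, 0.656, 0.557 and 0.248 CPM in primary tumors and 1.03, 0.921, 0.497 and 0.753 CPM in metastases, with overlapping groups. The 6 genes that differed between phenotypes had log2 fold changes between tumor types of 0.69 for Wnt3, 0.50 for Fzd7, 0.21 for Fzd4, 0.04 for Fzd6, -0.17 for Wnt5a and -0.47 for Fzd5.

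**Figure D4:**
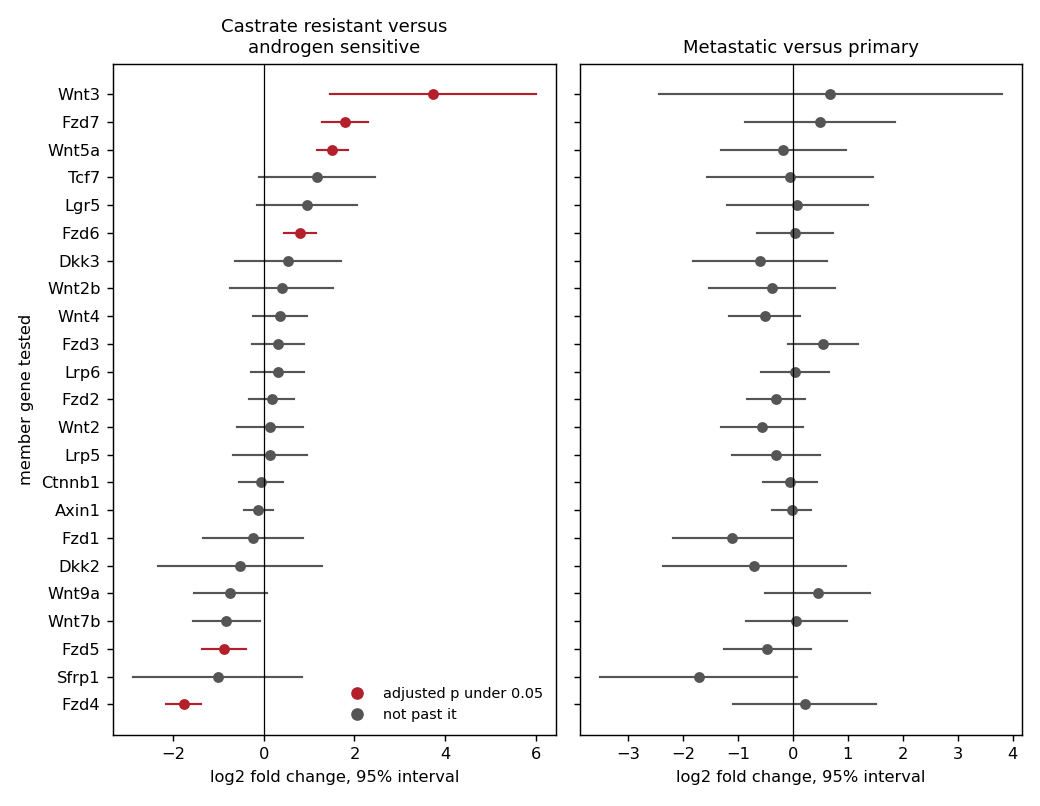
Log2 fold changes with 95% intervals of the 23 tested genes between phenotypes and between tumor types, in the same order in both panels, with genes past an adjusted p of 0.05 in red. The 6 red genes are all in the phenotype panel.

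The interaction of phenotype and tumor type asked whether the difference between metastatic and primary tumors depended on the phenotype. No gene passed by edgeR, and 1 of the 23 genes and 492 genes in all (2.88%) had an unadjusted p under 0.05. That gene was Sfrp1, with an interaction of 3.06 ± 1.19 on the log2 scale and an adjusted p of 0.953.

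The 22 genes under the filter had 4 to 72 counts each over all tumors together, 5 of them with a count in every tumor. They were the ligands Wnt1, Wnt10a, Wnt10b, Wnt11, Wnt16, Wnt3a, Wnt5b, Wnt6, Wnt7a, Wnt8a, Wnt8b and Wnt9b, the receptors Fzd10, Fzd8 and Fzd9, the antagonists Dkk1, Dkk4, Sfrp2, Sfrp4 and Sfrp5, and Axin2 and Lef1. Their summed level was 1.23, 0.811, 0.855 and 1.49 CPM in AS tumors and 0.400, 1.2, 2.13 and 5.61 CPM in CR tumors. Metastatic CR2, the tumor with the fewest counts, was the highest for 16 of the 22 (72.7%). It was also the highest for 57.1% of all 10594 untested genes in the same range of total counts, these 22 included. A level of 3 counts was 0.0294 to 0.149 CPM depending on the tumor. These genes were not tested in the main fits, and no difference is read from their levels.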

How the data were processed

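RNA of 8 tumors was sequenced by the authors from stranded, ribosomal RNA-depleted libraries as paired reads. Per the methods, reads were mapped to mm10 with Bowtie, and reads with 1 location and up to 2 mismatches were counted per gene, while the submitters' processing notes name CASAVA 1.8.2, TopHat2 2.0 and GRCm38. The counting tool, the annotation release and the use of strand are not given in the sources used here. The deposited values are raw counts per gene, with no normalization, from 20905806 to 91886163 per tumor.

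Genes were filtered by filterByExpr (17104 left), scaled by TMM and tested with edgeR 4.0.16 in R 4.3.3 by the quasi-likelihood test, with Benjamini-Hochberg adjustment and a threshold of 0.05. Tumor type was a term in the phenotype fit, and no covariate was used for tumor type. DESeq2 1.42.0, limma 3.58.1, other scalings and filters, tumors left out and 4 pairings were alternatives. Exon lengths are from GENCODE M21, which matched all 45 genes. The scripts were tested on simulated data.

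Values are given per tumor for genes past the threshold, the 3 with the smallest p in each direction, the 5 with the highest level per kilobase, the 8 genes listed by name and genes far from their group. The genes and lists were chosen with earlier results of these data known. Intervals and floors cover counting error and the spread between these tumors only. One marker gene is not reported here.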

Additional observations from a re-analysis of the deposited data

Results flagged for a closer look

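Among 92 groups of 4 tumors, 7 had a highest or lowest tumor whose gap to the next, as a share of the range, was above Dixon's 95% critical value. At that level chance alone flags some groups, and the groups share tumors. Primary AS1 was the highest AS tumor for Lrp5 (145 CPM, next 76.8), Lrp6 (60.2 CPM, next 37.4) and Fzd1 (1.88 CPM, next 0.527). Fzd1 was also highest in primary CR1 among CR tumors (0.969 CPM, next 0.502) and lowest in metastatic AS2 among metastases (0.343 CPM, next 0.494). Among metastases, Wnt3 was highest in metastatic CR1 (2.75 CPM, next 0.329) and Dkk2 in metastatic CR2 (0.502 CPM, next 0.190).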

How the results depend on the processing

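Between phenotypes, 2081 genes were called, against 3544 by DESeq2, 1271 without TMM factors, 974 in metastases only and 4 in primary tumors only, and 481 to 4133 with a tumor left out, the highest without primary CR1. Of the Wnt genes, 6 were called, against 3 to 7 with a tumor left out (3 without any 1 of the AS tumors or metastatic CR1) and 0 in primary tumors only, a design of 2 against 2. In primary tumors, log2 fold changes were -1.55 for Fzd4, 1.75 for Wnt5a and 1.56 for Fzd7. Fzd5 (adjusted p 0.0539) and Wnt3 (0.0522) were lost without TMM factors, by edgeR, and Wnt7b was called with no low-count filter (0.00414). The median of all genes was -0.12 without TMM factors and 0.11 with no filter. For the interaction, DESeq2 called 2 genes and the fit with no filter 217. Between tumor types, Sfrp1 reversed in CR tumors only (0.37) and Wnt4 in AS tumors only (0.014). The labels do not pair metastases with primary tumors, and a block for each of the 4 possible pairings called 0 genes. The cause of these changes was not tested.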
